A study of Homo sapiens with 4 samples.

Results

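The hypoxia-response genes MIR210HG, VEGFA, CA9, ADM, BNIP3, NDRG1, PDK1, EGLN3, KDM3A and SLC2A1 were examined for BRPF3 peaks in RKO cells, an established human colon carcinoma line. These 10 genes were selected by name, with earlier results of these data known. Their peaks were chosen by position, as every peak within 5 kb of a given hg19 start site. Of the 10 genes, 7 had such a peak, with 7 peaks of 11532 in the mimosine list, 7 of 13431 in the HU list and 7 of 13160 in the asynchronous list. The 7 genes are described as chosen for having peaks, so their presence is no result and none of the values below carries a test.

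The study mapped BRPF3 by chromatin immunoprecipitation and sequencing with a homemade rabbit antibody, and each condition had 1 library. A description field of these libraries names other BRPF proteins, and the titles and the antibody field, which name BRPF3, were followed. Mimosine cells were kept in 0.5 mM mimosine for 22 h. HU cells had the same mimosine treatment, were released for 3 h and were then kept in 3 mM hydroxyurea (HU) for 1 h 30 min, so they too had been exposed to mimosine. Asynchronous cells grew untreated, and a rabbit IgG library from the HU condition was the control for all 3 lists. No group has a replicate, so differences below describe these libraries, and a peak carried by more cells cannot be told apart from more BRPF3 per cell.

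Mimosine is a plant amino acid that blocks cells near the entry into DNA replication and binds iron. The prolyl hydroxylases that mark hypoxia-inducible factor (HIF) for destruction need iron and oxygen, so iron chelators are widely known to stabilise HIF, which binds short hypoxia response elements at its target genes and activates them. BRPF3 is a scaffold subunit of a histone acetyltransferase complex and is found near the starts of active genes. RNA and HIF were not measured here, so the name of the gene group comes from textbook knowledge and not from these cells.

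Most peaks at these genes did not share the shortening seen over the mimosine list. Each of the 7 genes held exactly 1 peak per list, so its merged region was called in all 3 lists, as were 71.5% of all merged regions. The mimosine peak was longer than the asynchronous peak at 5 of 7 genes, against 2.09% of the 10064 regions that held peaks of both lists. Among the 8881 regions whose asynchronous length lay between 1755 and 7177 bp, the range of these 7 genes, the share was 2.08%. The median ratio of mimosine to asynchronous length was 1.10 over the 7 genes (range 0.91 to 1.69), and 0.70 over all such regions, with an interquartile range of 0.58 to 0.81.

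The HU peak was longer than the asynchronous peak at 7 of 7 genes, beside 73.3% of the 12104 regions held by both lists. The median ratio was 1.52 over the 7 genes (range 1.05 to 2.06) and 1.09 over all regions. At 4 genes, MIR210HG, NDRG1, PDK1 and KDM3A, the HU peak was at least 1.5 times as long, a size reached by 4.84% of regions. The mimosine peak was longer than the HU peak at 0 of 7 genes and in 0.0892% of 10093 regions. The mimosine to HU ratio had a median of 0.77 over the genes and 0.63 over all regions.

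**Figure D1:**
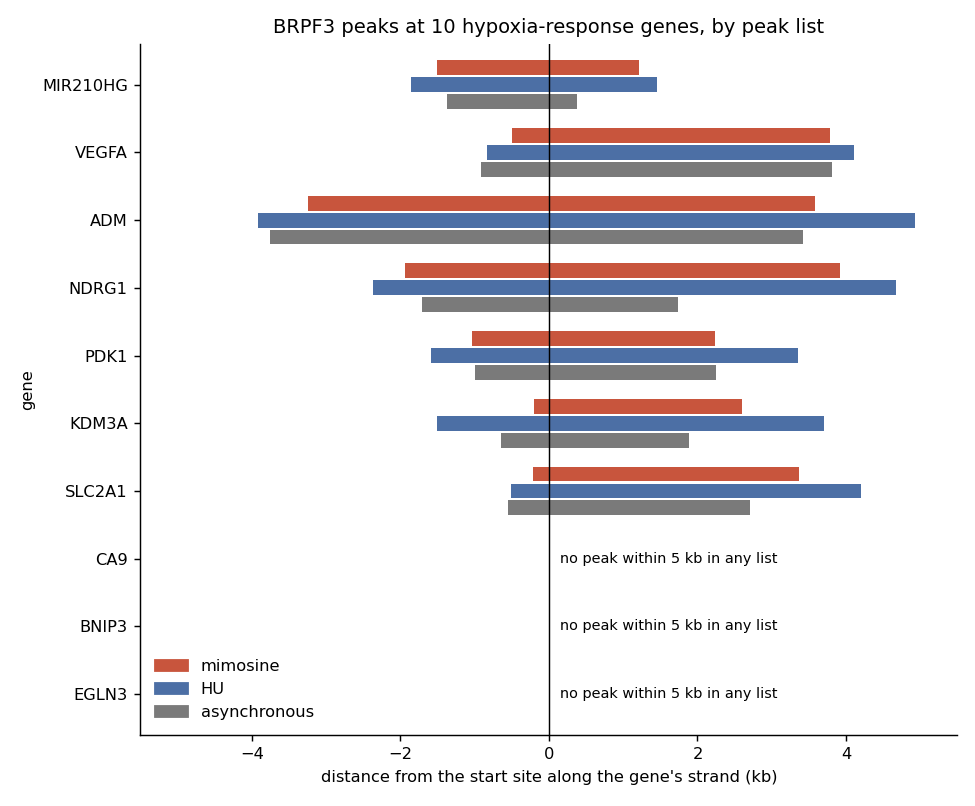
BRPF3 peaks drawn to scale along each gene's strand, in kb from the given start site, with 1 bar for each peak list. All 21 peaks span the start site, the HU bar is the longest at each of the 7 genes, and CA9, BNIP3 and EGLN3 have no peak within 5 kb.

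**Figure D2:**
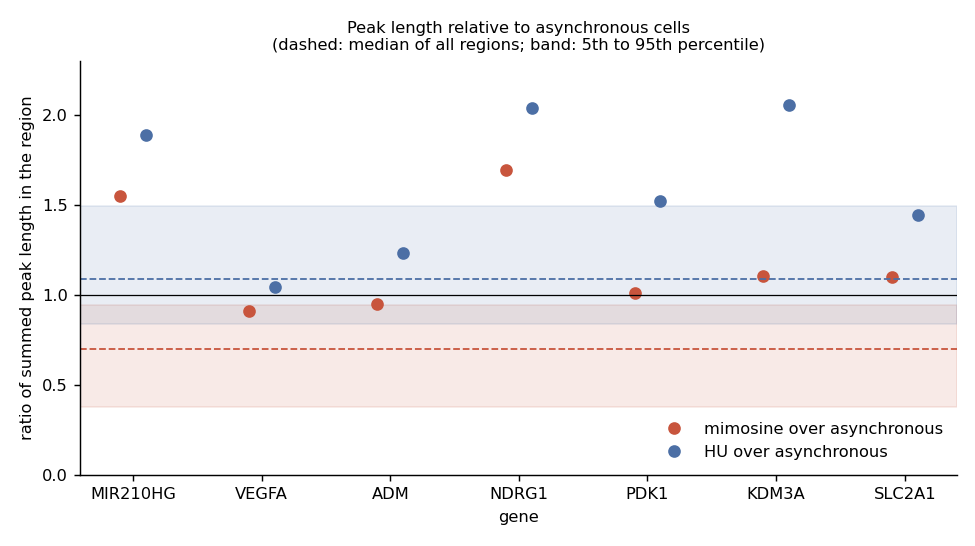
Ratio of summed peak length to that of asynchronous cells at the 7 genes with peaks (points), with the median (dashed line) and the 5th to 95th percentile (band) over all regions held by the lists compared. The mimosine points of 5 genes lie above 1, and those of VEGFA at 0.91 and ADM at 0.95 lie below it.

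The score of a peak is the one given in the authors' peak lists, taken to be the peak caller's value, and ranks peaks within a list. To set ranks side by side over lists of equal length, each list was ranked over the 10044 regions that all 3 lists held, with scores above 3100 counted as 3100 because the score does not resolve the strongest peaks. A percentile then gives the place of a region among these regions in the same list, and regions with tied scores share the middle rank of their tie. For a tied score, the share of regions that scored lower is therefore smaller than the percentile. The mimosine percentile was at least 10 points above the asynchronous percentile at 5 of 7 genes, where 18.6% of the 10044 regions met this. The HU percentile was at least 10 points above the asynchronous percentile at 5 of 7 genes, where 15.6% did. SLC2A1 passed this narrowly, at 10.4 points, with its HU score among the ties, so its place in this count depends on how ties are ranked. VEGFA and ADM had the tied score in every list, at 95.1 in asynchronous cells, and so could not rise by 10 points. Among all peaks of their own list, the 7 peaks had a median score percentile of 83.6 in mimosine, 78.3 in HU and 49.2 in asynchronous cells, and a median width of 3590, 4938 and 3264 bp.

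**Figure D3:**
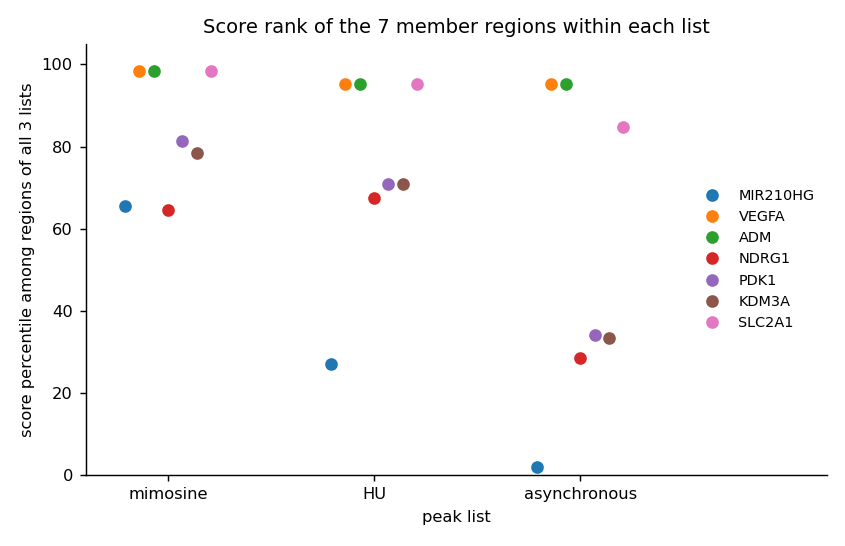
Score percentile of the 7 genes' regions in each peak list, ranked among the 10044 regions held by all 3 lists. MIR210HG is lowest in asynchronous cells at 1.99, NDRG1, KDM3A and PDK1 lie between 28.4 and 34.0 there, and VEGFA and ADM sit near the top of every list.

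MIR210HG is a noncoding RNA and the host transcript of miR-210, a microRNA known as a marker of the hypoxic response. The mature arm that is best known for this role is shown because the gene at this locus is a microRNA host, with the seed, bases 2 to 8, in capitals.
hsa-miR-210-3p: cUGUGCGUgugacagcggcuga

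At MIR210HG the mimosine peak was chr11:566986-569707 (2722 bp, score 558), the HU peak chr11:566749-570058 (3310 bp, score 451) and the asynchronous peak chr11:567816-569570 (1755 bp, score 121). The peak was thus shortest in asynchronous cells. The start site used here, chr11:568200, was not checked against an hg19 annotation and may be that of the miR-210 hairpin, so the overlap with the start and the upstream and downstream arms are relative to that position, while lengths and shifts between lists do not depend on it. Its mimosine to asynchronous length ratio of 1.55 was equalled or passed by 8 of 10064 regions, itself included, and the HU ratio of 1.89 by 109 of 12104. Its percentile among shared regions was 65.5 in mimosine, 26.9 in HU and 1.99 in asynchronous cells. MIR210HG stood apart from the other genes here, since its mimosine percentile lay 38.6 points above that in HU cells.

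PDK1 encodes a kinase that inhibits pyruvate dehydrogenase and so keeps pyruvate out of the citric acid cycle, and SLC2A1 encodes the glucose transporter GLUT1. At PDK1 the mimosine peak was chr2:173419743-173423014 (3272 bp, score 1043), the HU peak chr2:173419193-173424130 (4938 bp, score 1398) and the asynchronous peak chr2:173419782-173423026 (3245 bp, score 547). Mimosine and asynchronous peaks were nearly equal in length, with a ratio of 1.01, while the percentile among shared regions was 81.4 in mimosine, 70.8 in HU and 34.0 in asynchronous cells. A length ratio this high or higher was found in 188 of 10064 regions.

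At SLC2A1 the mimosine peak was chr1:43421478-43425067 (3590 bp, score 3100), the HU peak chr1:43420653-43425364 (4712 bp, score 3100) and the asynchronous peak chr1:43422141-43425404 (3264 bp, score 2261). The mimosine peak was 1.10 times and the HU peak 1.44 times as long as the asynchronous peak. The percentile among shared regions was 98.3 in mimosine and 95.2 in HU cells, where the score was among the tied values, and 84.8 in asynchronous cells, so SLC2A1 ranked high in every list.

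KDM3A encodes a histone demethylase that removes methyl groups from histone lysine and itself needs iron and oxygen. The mimosine peak was chr2:86668073-86670868 (2796 bp, score 925), the HU peak chr2:86666766-86671977 (5212 bp, score 1405) and the asynchronous peak chr2:86667624-86670157 (2534 bp, score 539). Its HU peak was 2.06 times as long as its asynchronous peak, the highest such ratio of the 7 genes, and 60 of 12104 regions had this ratio or a higher one. Its mimosine peak was 1.10 times as long, while its mimosine to HU ratio of 0.54 was the lowest of the 7 genes. The percentile among shared regions was 78.3 in mimosine, 71.0 in HU and 33.4 in asynchronous cells.

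The promoters of these genes are shown because HIF acts through a short motif that can be read in them. Of the 10 genes, 8 were matched by symbol to RefSeq promoter windows (GRCh38.p14). VEGFA and NDRG1 were not matched, so NDRG1, whose mimosine peak was also longer, is not shown. The 250 bases before the annotated start are given 5′ to 3′ with every ACGTG or GCGTG, on either strand, in capitals. On the reverse strand these read CACGT and CACGC, and matches may overlap. MIR210HG, PDK1 (the more GC-rich of 2 windows), KDM3A (the upstream of 2 windows) and SLC2A1 stand for genes with a longer mimosine peak, and BNIP3 and CA9 for genes without a peak.
MIR210HG: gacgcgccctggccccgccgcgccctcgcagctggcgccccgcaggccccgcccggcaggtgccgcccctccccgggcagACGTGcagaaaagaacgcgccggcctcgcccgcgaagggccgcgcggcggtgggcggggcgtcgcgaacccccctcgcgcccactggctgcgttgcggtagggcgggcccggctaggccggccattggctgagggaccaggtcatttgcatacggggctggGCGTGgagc
PDK1: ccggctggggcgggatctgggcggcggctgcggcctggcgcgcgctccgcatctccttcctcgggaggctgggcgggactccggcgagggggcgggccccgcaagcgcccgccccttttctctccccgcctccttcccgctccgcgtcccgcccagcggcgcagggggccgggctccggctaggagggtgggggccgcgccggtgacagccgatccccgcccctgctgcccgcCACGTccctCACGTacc
KDM3A: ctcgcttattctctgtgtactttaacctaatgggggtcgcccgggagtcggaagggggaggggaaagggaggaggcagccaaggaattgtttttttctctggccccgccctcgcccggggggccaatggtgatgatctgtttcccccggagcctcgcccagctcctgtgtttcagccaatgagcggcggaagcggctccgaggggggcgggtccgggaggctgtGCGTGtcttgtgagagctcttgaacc
SLC2A1: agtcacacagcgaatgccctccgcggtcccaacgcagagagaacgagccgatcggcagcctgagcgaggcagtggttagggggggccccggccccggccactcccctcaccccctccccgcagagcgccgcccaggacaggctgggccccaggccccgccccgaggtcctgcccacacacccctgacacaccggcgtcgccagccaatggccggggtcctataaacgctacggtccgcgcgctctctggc
BNIP3: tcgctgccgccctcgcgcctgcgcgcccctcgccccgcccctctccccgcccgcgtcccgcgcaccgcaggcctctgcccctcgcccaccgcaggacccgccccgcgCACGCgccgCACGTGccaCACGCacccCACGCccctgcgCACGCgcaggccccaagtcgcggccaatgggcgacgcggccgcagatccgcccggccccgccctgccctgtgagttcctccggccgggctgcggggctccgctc
CA9: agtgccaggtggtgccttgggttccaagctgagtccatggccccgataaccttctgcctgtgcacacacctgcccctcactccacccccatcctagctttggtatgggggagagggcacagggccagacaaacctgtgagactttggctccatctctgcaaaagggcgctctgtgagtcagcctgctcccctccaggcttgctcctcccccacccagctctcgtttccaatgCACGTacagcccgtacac

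ACGTG or GCGTG occurred in 7 of the 10 windows of these 8 genes and in 43.2% of the 35116 windows in the table. ACGTG alone occurred in 4 of 10 windows and in 18.5% of all. The KDM3A windows overlap and hold the same match, so it was counted in each. By gene, 6 of 8 held either motif and 4 of 8 held ACGTG. The PDK1 window shown held a pair of CACGT runs that begin 17 and 8 bases before the start, and the other PDK1 window held 0 matches. The CA9 match begins 18 bases before the start. BNIP3 held 6 matches and had no BRPF3 peak, whereas SLC2A1 had a peak in every list and held 0 matches in its 250 bases. The BNIP3 window was also rich in CpG, with 41 CpG dinucleotides beside 36 at MIR210HG and 34 in the PDK1 window shown. CA9 and the other PDK1 window each had 5, against a median of 11 over all windows. EGLN3 had neither a match nor a peak, and ADM had 1 match and a peak in every list. The windows belong to another build than the peaks and were matched by name, so the distance between motif and peak was not measured.

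VEGFA encodes a growth factor for blood vessels and ADM encodes adrenomedullin, a peptide that widens them. At VEGFA the mimosine peak was chr6:43737447-43741738 (4292 bp), the HU peak chr6:43737122-43742056 (4935 bp) and the asynchronous peak chr6:43737034-43741755 (4722 bp). At ADM the mimosine peak was chr11:10323402-10330224 (6823 bp), the HU peak chr11:10322729-10331571 (8843 bp) and the asynchronous peak chr11:10322889-10330065 (7177 bp). All 6 of these peaks had the tied score of 3100, so a difference in strength could not be read from it. These secreted factors had the broadest asynchronous peaks of the 7 genes and were the genes whose mimosine peak was shorter, with ratios of 0.91 at VEGFA and 0.95 at ADM. Both ratios lay above the median of 0.70, and 784 and 451 of 10064 regions reached them.

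The region of ADM lay 4.27 kb and that of MIR210HG 4.48 kb from the nearest other region, against a median of 27.2 kb over all regions. VEGFA stood alone at 80.5 kb, KDM3A at 102 kb and PDK1 at 125 kb, and SLC2A1 was near the median at 27.6 kb. The genes with a longer mimosine peak thus included both crowded and isolated sites.

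NDRG1 encodes a cytoplasmic protein that is induced by stress, hypoxia and iron chelators. The mimosine peak was chr8:134305586-134311434 (5849 bp, score 544), the HU peak chr8:134304829-134311864 (7036 bp, score 1255) and the asynchronous peak chr8:134307761-134311213 (3453 bp, score 468). Its mimosine peak was 1.69 times as long as its asynchronous peak, the highest such ratio of the 7 genes, and 4 of 10064 regions, itself included, had this ratio or a higher one. Its HU peak was 2.04 times as long. NDRG1 was also the most isolated of the 7, with 269 kb to the nearest other region. The percentile among shared regions was 64.6 in mimosine, 67.5 in HU and 28.4 in asynchronous cells.

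At these genes, added length lay mostly on the transcribed side of the start. Their asynchronous peaks reached a median of 2246 bp downstream and 998 bp upstream of it. In mimosine against asynchronous cells the downstream edge lay 2175 bp further out at NDRG1, 830 bp at MIR210HG, 711 bp at KDM3A, 663 bp at SLC2A1 and 159 bp at ADM. At VEGFA and PDK1 it differed by -17 and -12 bp. The upstream edge was nearer to the start in mimosine cells at ADM, KDM3A, VEGFA and SLC2A1, by values of -513, -449, -413 and -337 bp, and further out at NDRG1, MIR210HG and PDK1, by 221, 137 and 39 bp. At KDM3A and SLC2A1 the longer mimosine peak therefore combined a shorter upstream arm with a longer downstream arm. In HU against asynchronous cells the downstream edge lay further out at all 7 genes, by 301 bp at VEGFA to 2932 bp at NDRG1. The upstream edge shifted by -88 bp at VEGFA to 858 bp at KDM3A. Edge shifts were not computed at other genes, so whether they differ there was not tested.

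Around the start sites of MIR210HG, CA9, ADM and SLC2A1, other regions with peaks of both lists were shortened in mimosine cells to about the degree seen over all regions. Within 50 kb of the 10 start sites lay 13 further regions, all around these 4 sites, with the most at MIR210HG. The other sites, those of NDRG1, PDK1 and KDM3A among them, had none and so give no such contrast. CA9 gives none either, having no peak at its start. Of these 13, 8 held both a mimosine and an asynchronous peak and 5 held no mimosine peak. Among those 5, the regions 17556 bp from ADM and 48747 bp from MIR210HG held only an HU peak, so they lacked an asynchronous peak too. The 8 regions were called in all 3 lists, as were 71.5% of all merged regions. The share of all regions without a mimosine peak was not computed. In 0 of those 8 flanking regions was the mimosine length the greater, and their median ratio was 0.67 (range 0.44 to 0.87). Over all regions with peaks of both lists, the mimosine length was the greater in 2.09% and the median ratio was 0.70. MIR210HG gives the closest contrast, since its flanking regions at 5931 and 6488 bp from the start had ratios of 0.75 and 0.78, against 1.55 at the gene itself. In both flanking regions the mimosine length is the sum of 2 peaks, without the gap between them, set against 1 asynchronous peak. The region 31825 bp from the SLC2A1 start had a ratio of 0.52, against 1.10 at the start. At ADM the region 8183 bp away had 0.87, against 0.95. In HU against asynchronous cells, 8 of the 10 flanking regions held by both lists were longer, with a median ratio of 1.06. Among all regions held by both lists, the share was 73.3% and the median ratio 1.09. Of the flanking regions, the one 31825 bp downstream of the SLC2A1 start had the highest HU ratio, at 1.68, against 1.44 at the start. Long HU peaks were thus not limited to the 10 given start sites. Whether the flanking regions hold starts of other genes was not determined.

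**Figure D4:**
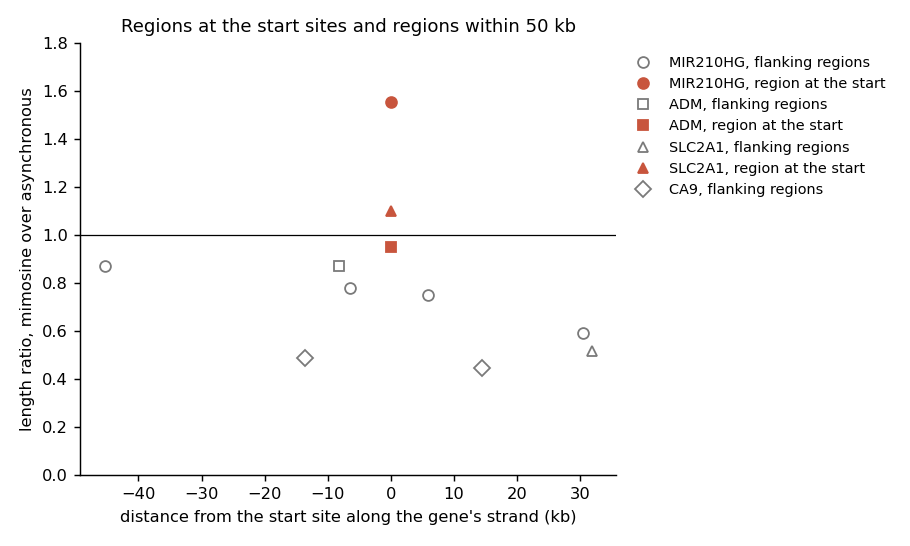
Ratio of mimosine to asynchronous peak length for regions within 50 kb of the start sites (open grey symbols) and for the regions at the start sites of MIR210HG, ADM and SLC2A1 (filled red symbols), by distance in kb along the gene's strand. All 8 flanking regions lie between 0.44 and 0.87, and MIR210HG lies at 1.55.

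CA9, BNIP3 and EGLN3 had no BRPF3 peak within 5 kb in any list. CA9 encodes a membrane carbonic anhydrase that regulates pH outside the cell, BNIP3 a mitochondrial protein that promotes mitophagy, and EGLN3 a HIF prolyl hydroxylase that is itself a HIF target. CA9 lay in a stretch with other peaks, the nearest 14653 bp away in mimosine, 8042 bp in HU and 8022 bp in asynchronous cells. ARHGEF39 and TPM2 are its neighbouring protein-coding genes in the RefSeq table, and which of the nearby peaks belong to them was not determined. BNIP3 lay in a stretch of 2204 kb without a peak in mimosine, 2153 kb in HU and 2043 kb in asynchronous cells. EGLN3 lay in such a stretch of 2381 kb in mimosine and 1858 kb in both HU and asynchronous cells. Gaps at least this long made up 1.65 to 2.14% of all gaps between neighbouring peaks by count. The median gap was 63.5, 59.0 and 60.6 kb in mimosine, HU and asynchronous cells. A long gap covers more of the genome than a short one, and the share of bases or genes within such gaps was not computed. The number of reads behind the lists is unknown, so a peak that is not listed was not detectable at this depth and is not shown to be absent.

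All 21 peaks overlapped their start site, and the nearest peaks outside lay 6094 bp from MIR210HG in mimosine, 5931 bp in HU and 6035 bp in asynchronous cells. The next were those of CA9 at 8042 bp in HU and 8022 bp in asynchronous cells and those of ADM at 8183 to 8825 bp over the 3 lists. A window of 10 kb would have taken these peaks too.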

How the data were processed

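Peak lists of BRPF3 ChIP-seq from RKO cells were used, 1 per condition, each named as called against the IgG library of HU cells. Per the submitters' processing notes, the tools were MACS 1.4.0, Bowtie 0.12.8, bedtools and SAMtools (roles and settings not stated), and the builds hg18 and hg19 appear there. No deposited score lies below 50.0, and from this and the file layout the score is taken to be 10 times the negative base-10 logarithm of the peak caller's p-value. Depth per library and the caller's duplicate handling are not given in the sources used here. Longer peaks can come from more reads as well as from wider binding, and this was not tested.

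Positions are taken as hg19, the build of the start sites (some of them rounded, and not checked against an annotation), and are counted from 1. Peaks of any list that overlapped by 1 bp or more were merged into 14039 regions, and the lengths of a list's peaks in a region were summed. Strands came from RefSeq and, for VEGFA and NDRG1, from common knowledge. All 10 genes are named by rule. The members and lists were chosen with earlier results of these data known, and the fold of 1.5, the 10 rank points and the distance of 50 kb after values were seen. Other genes of the pathway were listed but not analysed here, since no annotation of the files' build was used, and the share of all genes with a peak was not computed for the same reason. Python 3.11.15, pandas 2.3.3, NumPy 2.4.6 and matplotlib 3.10.9 were used, and the length calculation was tested on simulated data.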

Additional observations from a re-analysis of the deposited data

How the results depend on the processing

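No paired analysis was possible because each condition had 1 library and no test was made. The count of genes with a peak was 7 in each list with windows of 1 and 2 kb and with a score of 100 or more, and with a window of 10 kb it was 7 in mimosine and 8 in HU and asynchronous cells, where CA9 was added. The median length ratios of mimosine to asynchronous (1.10), mimosine to HU (0.77) and HU to asynchronous peaks (1.52) were the same with only the bases inside the 5 kb window, with a score of 100 or more, with exactly 1 peak per list and with regions that overlap the start, because the same 7 single peaks were used each time. The median score percentiles were the same with scores above 3100 set to 3100 and with the peak nearest to the start. Counting ACGTG alone gave 4 promoter windows in place of 7, and the stricter motif cannot give more. Over all regions, a score of 100 or more left 1.98% with a longer mimosine than asynchronous peak, and exactly 1 peak per list left 1.81%. With 1 library per condition, the spread between repeats of these values is unknown.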
